A study of Mus musculus with 572 samples.

Results

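Among single mTEChi of neonatal Aire/EED-dKO mice, 2 groups of 70 cells each were compared, those at the upper and those at the lower end of a score made from 12 genes. The score of a cell was the mean normalized value of Il1rl1, Myot, Fam171b, Pappa2 and Cd86 (score A) minus that of Cdh8, Cdh9, Itga1, P2rx3, Btnl4, Slc5a8 and Prg2 (score B). The 70 cells with the highest difference are called Il1rl1/Cd86-type and the 70 with the lowest Cdh8/Cdh9-type. Together they make up 140 of the 572 cells of the series and 52% of its Aire/EED-dKO cells, the rest of which lay between the ends. The cells were chosen by the measured values of these 12 genes, so the levels of the 12 describe the choice and support nothing. The question put to the data was which other genes went with this split.

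The cells were sorted from digested thymus as DAPI-CD45-EpCAM+Ly51-MHCII-high, 1 cell to a library, and measured by RamDA-seq, which reads total RNA over its whole length without molecular identifiers. Both genotypes are on the C57BL/6 strain and carry floxed EED with Foxn1-Cre, which deletes the gene in thymic epithelial cells, so both lack EED there. The Aire/EED-dKO mice lack Aire as well and were taken at day 4 of age, in experimental batches 1, 2, 6 and 7 of 88, 76, 38 and 67 cells. The other cells are EED-cKO, with Aire intact, from batches 3 and 4 at day 4 (87 and 76 cells) and 8 and 9 at day 3 (63 and 77 cells), and serve here only as a second set of cells on which the same score was computed. The labels name no animal and leave sex unknown, and the cells of a genotype count as 1 sample. Values are therefore given without any test, for some genes in each of the 4 batches and for the others as pooled levels.

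Medullary thymic epithelial cells (mTECs) show developing T cells the proteins of other tissues, so that self-reactive clones are removed. Aire is the nuclear factor that turns on many such tissue genes in mature, MHC class II-high mTECs, each in a small share of the cells. Other tissue genes come from mimetic cells, mTECs that take on the program of gut, skin, airway or muscle cells under the transcription factors of those tissues. PRC2, of which EED is a core subunit, writes the repressive H3K27me3 mark and keeps many developmental genes silent.

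The difference of the scores formed a continuum. It ran from 1.67 down to -1.46, in units of the natural log of the normalized count plus 1. At the upper limit the last chosen cell had 0.494 and the first cell left out 0.492, and at the lower limit these values were -0.325 and -0.304. Within 0.1 of the upper limit lay 16 chosen and 16 other cells, and within 0.1 of the lower limit 18 chosen and 10 other cells. The types are thus the ends of a range, and no gap set them apart. In Il1rl1/Cd86-type cells the median of score A was 0.968 and that of score B 0.180. Cdh8/Cdh9-type cells had medians of 0.277 and 0.956. Of the cells between, 9 were high in both scores, at or above the first quartile of each type, and 35 were at or below the median of the opposite type in both.

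**Figure D1:**
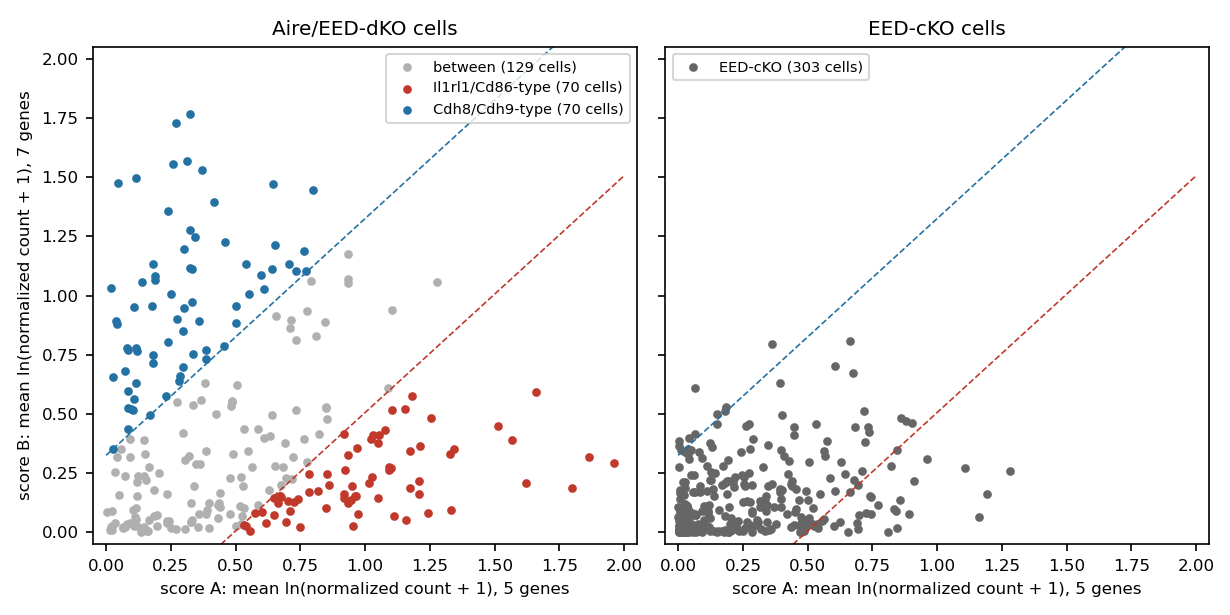
Each point is 1 cell, with score A on the x axis and score B on the y axis, both as means of ln(normalized count + 1), for Aire/EED-dKO (left) and EED-cKO cells (right). The dashed lines are the limits of the chosen cells (differences of 0.494 and -0.325), and the points form a cloud along both axes without a gap at either line.

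Across all Aire/EED-dKO cells, score A and score B had a Pearson correlation of -0.06, which is a description since the cells share batches and depth. In EED-cKO cells the correlation was 0.29. Pairs of genes within score A had correlations of 0.15 to 0.41 in Aire/EED-dKO cells (median 0.26, 10 pairs). Within score B they ran from 0.17 to 0.57 (median 0.36, 21 pairs), and between the scores from -0.24 to 0.32 (median 0.01, 35 pairs). In EED-cKO cells the medians within score A and within score B were both 0.11.

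Both types were found in every batch. Batches 1, 2, 6 and 7 gave 26, 22, 11 and 11 Il1rl1/Cd86-type cells and 19, 16, 11 and 24 Cdh8/Cdh9-type cells. As shares of the batch, the former ranged from 16.4% (batch 7) to 29.5% (batch 1) and the latter from 21.1% (batch 2) to 35.8% (batch 7). The median cell held 945764 reads in the Il1rl1/Cd86-type (220056 to 1714630) and 891477 in the Cdh8/Cdh9-type (215897 to 1683600). It had 14945 and 14052 genes with a read. After thinning each cell to 200000 reads, these were 12155.5 and 11674.5. Mitochondrial reads made up 0.703% and 0.672% of the median cell.

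The genotype label was checked on Aire, which stood at 19 CPM (counts scaled to the summed reads of the cells) in the Il1rl1/Cd86-type and 13.9 CPM in the Cdh8/Cdh9-type, against 866 CPM in EED-cKO cells. Reads over this locus come from total RNA of a knocked-out gene, whose design was not examined here. The deletion of Eed could not be checked in this way, since no cell with intact EED was compared and reads counted over a whole gene do not show a missing exon. Eed gave 11.1 and 10.5 CPM in the types and 11.5 CPM in EED-cKO cells, and its partners Ezh2 (42.8 and 34 CPM) and Suz12 (73 and 79.3 CPM) differed little between the types. None of the 12 measured genes of PRC2 and its partners met the call rule given below, and of the 19 PRC1 genes Phc1 (75.9 and 34 CPM) was called for the Il1rl1/Cd86-type and Cbx8 (10.3 and 23.1 CPM) for the Cdh8/Cdh9-type. Both fell under 2-fold in some alternatives (0.83 for Phc1 with standardized values in the score, -0.95 for Cbx8 without batch 1).

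The 5 genes of score A are an immune receptor, a costimulatory ligand, a muscle protein, a protease and a membrane protein. Pappa2, a secreted protease that cuts insulin-like growth factor binding proteins, gave 1843, 1669, 2582 and 1763 CPM in the Il1rl1/Cd86-type cells of batches 1, 2, 6 and 7, and 237.2, 56.9, 89.3 and 296.2 CPM in the Cdh8/Cdh9-type cells. The single cells ran from 30.8 CPM through a median of 1567 to 5702 CPM in the former and from 1.87 through 43.8 to 1755 CPM in the latter. On GRCm38 the gene lies at chr1:158711727-158980490, and Il1rl1 at chr1:40429570-40465415. Every Il1rl1/Cd86-type cell had at least 5 reads of Pappa2, as did 64 of 70 Cdh8/Cdh9-type cells.

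Il1rl1, the receptor of the alarmin IL-33, was much more uneven. Its batches gave 52.9, 244.2, 26 and 6.61 CPM in the type named after it and 10.8, 6.43, 0.243 and 2.56 CPM in the other. At least 5 reads were found in 36 and 11 of 70 cells, and 1 cell held 37.3% of the reads of its type. Cd86, the ligand of CD28 on T cells, had 100.9 CPM against 40.5 CPM in the summed reads, but 39 cells of the Il1rl1/Cd86-type and 44 of the Cdh8/Cdh9-type had at least 5 reads. The median cell had 12.9 and 15.6 CPM. The score, which includes Cd86, thus set the groups apart in its summed reads, although no more Il1rl1/Cd86-type cells had at least 5 reads. Myot, which codes for a sarcomere protein of the Z-disc, gave 176.5 and 51.4 CPM, and Fam171b gave 126.2 and 34.1 CPM, with 66 and 39 of 70 cells at 5 reads or more.

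Score B joins adhesion genes with a receptor, a transporter, a butyrophilin-like gene and an eosinophil granule gene. Itga1, the alpha 1 chain of a collagen-binding integrin, gave 629, 856, 355 and 440 CPM in the Cdh8/Cdh9-type cells of the 4 batches and 25.8, 48.9, 27.9 and 33.6 CPM in the Il1rl1/Cd86-type cells. Its median cell had 378 CPM against 4.48 CPM, and the gene lies at chr13:114953096-115101964. P2rx3, an ATP-gated channel best known from sensory neurons, had 272.2 against 24.2 CPM. Btnl4, of the butyrophilin-like family, stood at 98.7 against 6.89 CPM and had at least 5 reads in 67 against 22 cells. Prg2, the major basic protein of eosinophil granules, had 255.1 against 24.8 CPM, in 64 against 48 cells. The type II cadherins Cdh8 (198.4 against 13.8 CPM) and Cdh9 (138.9 against 36.1 CPM) were found at 5 reads in 41 and 60 Cdh8/Cdh9-type cells and in 20 and 27 Il1rl1/Cd86-type cells. Slc5a8, a sodium-coupled monocarboxylate transporter, gave 519 against 136.8 CPM.

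By the choice of the cells, Cdh8/Cdh9-type cells held a median of 6 of the 7 genes of score B at 5 reads or more, and Il1rl1/Cd86-type cells a median of 4 of the 5 genes of score A. Each type also held genes of the other score, with medians of 3 of the 5 in Cdh8/Cdh9-type cells and 3 of the 7 in Il1rl1/Cd86-type cells. When each gene was taken out of the score and the cells were ranked again, the log2 ratio of that gene, for the Il1rl1/Cd86-type over the Cdh8/Cdh9-type, was 3.31 for Il1rl1, 2.24 for Pappa2, 1.5 for Fam171b, 1.22 for Myot and 0.77 for Cd86. It was -3.76 for Btnl4, -3.34 for Itga1, -3.30 for P2rx3, -3.17 for Prg2, -3.01 for Cdh8, -1.63 for Cdh9 and -1.40 for Slc5a8. All 12 kept the sign of their score, but within batches Myot (-0.58 to 2.46), Cd86 (-0.59 to 1.33) and Slc5a8 (-2.14 to 0.64) had both signs. The groups ranked again shared 51 to 69 cells with the Il1rl1/Cd86-type and 62 to 67 with the Cdh8/Cdh9-type. The 12 genes were chosen with earlier results of these data known. A kept sign therefore cannot test the grouping of the genes, and these ratios only describe it.

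**Figure D2:**
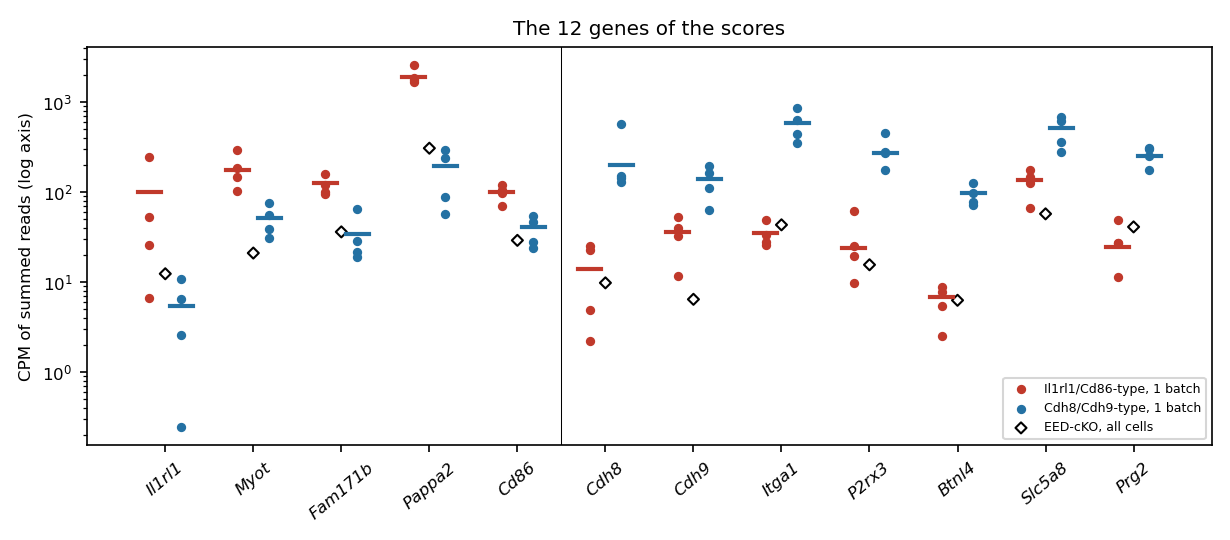
Levels of the 12 genes of the scores in CPM of summed reads on a log axis, with each dot 1 batch of a type, each bar the pooled level of the type and each diamond the level in all EED-cKO cells. Itga1 stands at 355 to 856 CPM in the Cdh8/Cdh9-type batches and at 25.8 to 48.9 CPM in the others, while the Il1rl1 batches spread from 6.61 to 244.2 CPM in the Il1rl1/Cd86-type.

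All other genes were then compared. Genes entered the comparison with 5 reads or more in at least 5 of these cells, a limit that 22464 genes passed. The log2 ratio was taken with 0.1 CPM added, the Il1rl1/Cd86-type over the Cdh8/Cdh9-type, and a gene was called if the ratio was at least 2-fold and had the same sign in all 4 batches. By this rule 1573 genes (7.00% of those tested) were higher in Il1rl1/Cd86-type cells and 1971 (8.77%) in Cdh8/Cdh9-type cells. Of these, 1096 and 1368 code for proteins. Among these called genes, the batches of the types did not overlap for 1034 of the 1573 and 1242 of the 1971. The rule already asked for 1 sign in all batches, and the share over all tested genes was not counted. The median log2 ratio of all tested genes was -0.06. Any gene that varies with the scores can meet these rules, so the percentages serve as the background for the gene groups below. CPM is not divided by the length of a transcript, and levels are compared only between cells for 1 gene at a time.

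The 10 named genes with the largest ratios toward the Il1rl1/Cd86-type are described one by one, with what each is known for, and were not tested for a common theme. Sfrp5, a secreted inhibitor of Wnt signals, had 81.2, 58.3, 85.9 and 90.5 CPM in the Il1rl1/Cd86-type of the 4 batches and 3.29, 6.16, 3.52 and 3.33 CPM in the Cdh8/Cdh9-type, a log2 ratio of 4.21. It had at least 5 reads in 52 and 18 of 70 cells, the widest spread over cells among these 10 genes. Fcrla, an Fc receptor-like protein of B cells, had 13.3, 23.3, 7.45 and 26.3 CPM against 0.176, 0.937, 0.243 and 1.64 CPM, in 35 against 3 cells. The batches of both genes lay apart.

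Olfr284, an olfactory receptor, was found in 29 against 3 cells (18.1 and 0.76 CPM). Grm4, a metabotropic glutamate receptor, was found in 20 against 4 cells (20.8 and 0.85 CPM), and Fcgr2b, the inhibitory IgG receptor, in 17 against 1 (8.83 and 0.40 CPM). The Wnt ligand Wnt7a gave 9.83 against 0.43 CPM, in 14 cells against 1, and Galnt13, which adds sugars to proteins in neurons, gave 14 against 0.64 CPM, in 14 against 2. Bhlhe22, a transcription factor of neurons, had at least 5 reads in 17 cells of the Il1rl1/Cd86-type and in none of the other (4.71 and 0.16 CPM). Tdrd6, of the germ cell chromatoid body, had 471 reads against 6, a ratio of 73 with an exact 95% counting interval of 33.3 to 200.03. Slc14a2, a urea transporter of the kidney, had 349 reads against 4, a ratio of 81.2 (31.4 to 299.6). Such intervals cover counting error only, because reads that lack a molecular identifier can be copies of 1 molecule.

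The 10 named genes with the largest ratios toward the Cdh8/Cdh9-type were treated likewise. Sis, the sucrase-isomaltase of the intestinal brush border, gave 38.7, 199.7, 4.13 and 96.7 CPM in the Cdh8/Cdh9-type of the 4 batches and 0.290, 2.26, 0.497 and 1.10 CPM in the Il1rl1/Cd86-type. Its log2 ratio was -6.31, and 30 against 3 cells had at least 5 reads. The batches lay apart, although batch 6 had far fewer reads of Sis in the Cdh8/Cdh9-type than the other 3. Lypd8, a protein of the colon surface that keeps bacteria off the epithelium, had 57.6, 106.9, 14.9 and 7.53 CPM against 0.166, 1.06, 0.298 and 0.170 CPM, in 21 cells against 1. Atp10b, a phospholipid flippase, was the most widespread of these genes, in 45 of 70 Cdh8/Cdh9-type cells against 8 (94.5 and 2.22 CPM).

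Of the others, Lgals2 (a galectin), Rnase1 (pancreatic ribonuclease), Kif12 (a kinesin), Sectm1b and Vnn3 had no Il1rl1/Cd86-type cell with 5 reads, against 23, 22, 17, 16 and 15 cells of the Cdh8/Cdh9-type. Kif12 had 3 reads in all Il1rl1/Cd86-type cells, a ratio of 349 toward the Cdh8/Cdh9-type with a counting interval of 119.2 to 1697. Crnn, cornulin of cornified epithelium, gave 47.2 against 1.11 CPM, in 15 against 4 cells. Muc5ac, the gel mucin of stomach and airway, gave 111.4 against 2.32 CPM, but 1 cell held 77.5% of the Cdh8/Cdh9-type reads. Taking these 10 genes as a set that the same cells chose, 43 Cdh8/Cdh9-type cells had 3 or more of them at 5 reads, against 0 Il1rl1/Cd86-type cells and 18 of the cells between. For the 10 genes of the opposite direction, the numbers were 50 Il1rl1/Cd86-type cells, 0 Cdh8/Cdh9-type cells and 49 cells between.

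**Figure D3:**
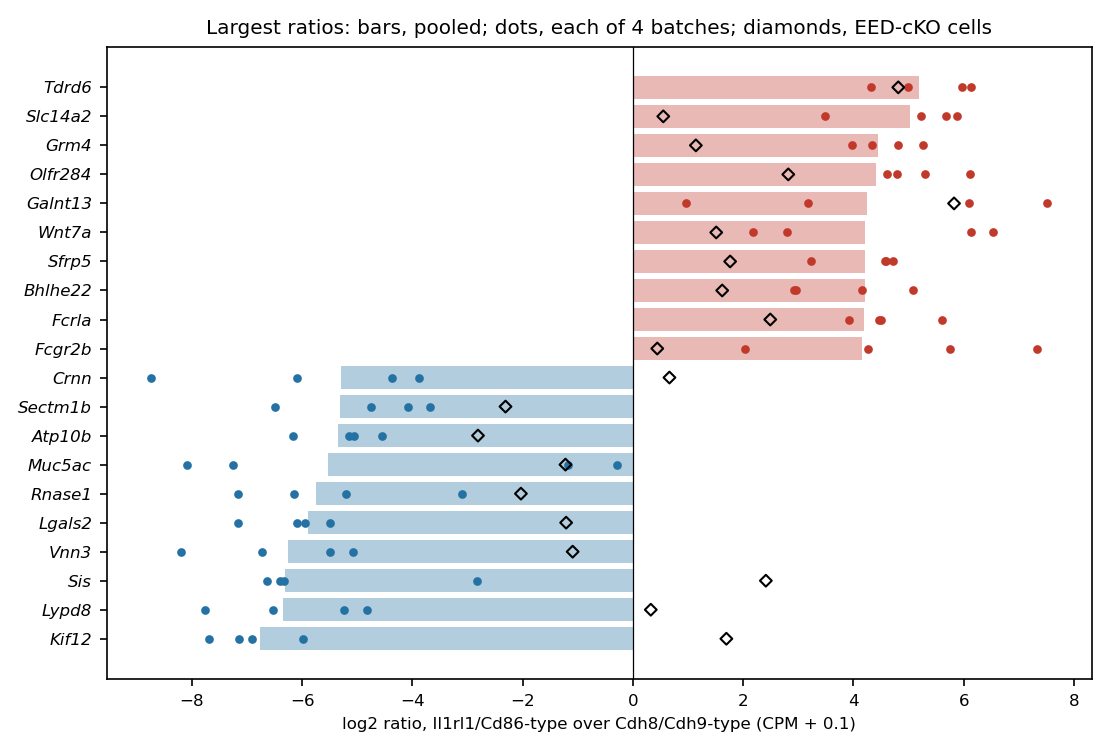
Log2 ratio (CPM + 0.1) of the 10 named genes with the largest ratio in each direction, pooled (bars), in each of the 4 batches (dots) and in EED-cKO cells ranked by the same score (diamonds). All dots lie on the side of their bar, while the diamonds of Crnn, Sis, Lypd8 and Kif12 lie above 0.

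The sequence before the start of these genes differed between the directions as well, and 4 examples are shown with each CG dinucleotide in capitals. They are the 250 bases upstream of the RefSeq start on GRCm38.p6, written 5′ to 3′ on the gene's strand. The first is a CG-rich start of a gene higher in Il1rl1/Cd86-type cells, the next a CG-poor start of the same direction, and the last 2 are starts of the first 2 genes described for Cdh8/Cdh9-type cells. Wnt7a lies at chr6:91411354-91411603 (minus strand), Fcrla at chr1:170927584-170927833 (minus), Sis at chr3:72967864-72968113 (minus) and Lypd8 at chr11:58378782-58379031 (plus).
Wnt7a: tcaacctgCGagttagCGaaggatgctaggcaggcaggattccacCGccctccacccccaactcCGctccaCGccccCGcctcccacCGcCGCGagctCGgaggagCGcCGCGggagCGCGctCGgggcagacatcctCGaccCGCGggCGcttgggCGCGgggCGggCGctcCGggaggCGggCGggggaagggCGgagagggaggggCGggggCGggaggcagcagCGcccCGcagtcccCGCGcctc
Fcrla: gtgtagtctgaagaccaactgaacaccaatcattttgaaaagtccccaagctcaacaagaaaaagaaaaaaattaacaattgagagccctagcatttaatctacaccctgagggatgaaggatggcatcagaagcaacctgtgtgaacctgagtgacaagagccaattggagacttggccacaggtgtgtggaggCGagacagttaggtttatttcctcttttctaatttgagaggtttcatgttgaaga
Sis: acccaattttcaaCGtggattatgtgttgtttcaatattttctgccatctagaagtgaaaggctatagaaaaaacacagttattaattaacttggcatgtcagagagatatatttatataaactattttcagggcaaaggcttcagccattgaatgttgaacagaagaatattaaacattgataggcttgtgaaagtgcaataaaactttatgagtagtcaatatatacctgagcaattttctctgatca
Lypd8: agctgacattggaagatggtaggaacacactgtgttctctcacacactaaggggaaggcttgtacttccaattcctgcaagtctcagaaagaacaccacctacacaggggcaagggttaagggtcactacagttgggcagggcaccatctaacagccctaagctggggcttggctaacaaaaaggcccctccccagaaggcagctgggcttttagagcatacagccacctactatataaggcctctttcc
Wnt7a held 34 CG in these bases, Fcrla and Sis 1 each and Lypd8 0.

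Over all genes with a RefSeq window of 300 bases (250 before and 50 after the start), genes higher in Cdh8/Cdh9-type cells had fewer CG at their start. A window was found for 12271 of 15770 protein-coding genes tested. The median number of CG per window was 9 (quartiles 4 and 21) for 1027 genes called for the Cdh8/Cdh9-type and 17 (9 and 27) for 831 called for the Il1rl1/Cd86-type. It was 20 (11 and 28) for the 10413 genes tested and not called, and 7 over all windows of the genome table. Of the 10 named genes with the largest ratio toward the Cdh8/Cdh9-type, 8 had a window, with 0 to 6 CG. The windows of Il1rl1/Cd86-type genes were mixed, with 42 CG for Wnt7a, 28 for Galnt13, 15 for Sfrp5, 6 for Fcgr2b and 1 for Fcrla.

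Short motifs were counted in the same windows on both strands, chosen after the gene groups had been seen. The AP-1 motif TGACTCA was found in 7.98% of the windows of Cdh8/Cdh9-type genes, 3.37% of those of Il1rl1/Cd86-type genes and 3.51% of those not called, and in 5.17% of all windows. The HNF4 motif, CAAAGTCCA or CAAAGTTCA, was found in 1.95%, 0.602% and 0.672% (0.862% of all). The TATA box TATAAA had 13%, 7.46% and 7.66% (14.2% of all), and the interferon-stimulated response element (GAAA, any 2 bases and GAAA again) 4.97%, 2.65% and 2.91% (3.49% of all). The ETS motif CCGGAAG, common in CG-rich starts, went the other way between called and uncalled genes, with 5.26%, 6.74% and 17.3% (9.12% of all). These shares describe letters in a window, were not tested and name no factor at work. As examples of genes called for the Cdh8/Cdh9-type, the bases before the interferon-induced gene Ifit1 (chr19:34640639-34640888, plus) are shown with the response elements in capitals, and those before the epidermal gene Dmkn (chr7:30763506-30763755, plus) with the AP-1 motif in capitals.
Ifit1: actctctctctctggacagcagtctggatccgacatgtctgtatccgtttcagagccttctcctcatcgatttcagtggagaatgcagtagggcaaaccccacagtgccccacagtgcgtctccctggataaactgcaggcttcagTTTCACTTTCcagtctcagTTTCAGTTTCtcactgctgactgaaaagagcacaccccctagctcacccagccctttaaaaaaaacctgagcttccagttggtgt
Dmkn: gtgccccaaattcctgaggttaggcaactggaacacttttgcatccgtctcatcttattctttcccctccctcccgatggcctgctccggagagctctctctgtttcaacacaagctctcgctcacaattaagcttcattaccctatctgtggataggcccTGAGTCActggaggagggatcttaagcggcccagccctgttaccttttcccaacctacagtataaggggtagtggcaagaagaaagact

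Gene groups of the tissues that mimetic cells resemble differed in direction. Enterocyte, keratinocyte, airway and endocrine genes had more calls for the Cdh8/Cdh9-type than the 8.77% of all genes, muscle genes had more for the Il1rl1/Cd86-type, and the rest were mixed or had 1 call. Of 11 enterocyte and hepatocyte genes measured, 4 were called for the Cdh8/Cdh9-type and 0 for the Il1rl1/Cd86-type, and all 11 had a log2 ratio below 0 (median -2.89). Among the 4 were Lypd8, Vil1, the brush border protein villin (49 and 4.60 CPM), and Hnf4g, a transcription factor of gut epithelium (58.9 and 16.5 CPM). Summed levels, here and below, take all listed genes of a group, also those under the limit of the comparison (12 genes for this group). The summed level passed the 90th percentile of all Aire/EED-dKO cells in 18 Cdh8/Cdh9-type cells and 1 Il1rl1/Cd86-type cell. Of 9 keratinocyte genes, 2 were called for the Cdh8/Cdh9-type (median -2.74), namely Dmkn (26.8 and 1.95 CPM) and the keratin Krt77 (10.4 and 1.47 CPM). Without batch 1 the median was -1.21. High levels of these genes were found in few cells. The summed level was above the 90th percentile in 11 Cdh8/Cdh9-type cells and 3 Il1rl1/Cd86-type cells, the median cell had 51.3 and 42.6 CPM, and the summed levels of the batches overlapped.

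Of 8 airway and secretory genes, 3 were called for the Cdh8/Cdh9-type (median -0.78), the mucins Muc5ac and Muc5b (16.0 and 5.53 CPM) and the airway surface protein Bpifa1 (3.41 and 0.85 CPM). The summed level of the 12 genes listed for this group was above the 90th percentile in 16 cells against 1. Endocrine genes had 3 of 10 called (median -0.90), led by the granule protein Chga (38.4 and 11.3 CPM), which was also the only call among 4 parathyroid genes (median -0.11). Of the 10 endocrine genes 4 had a ratio above 0, among them the transcription factor Insm1 (285.1 and 154.9 CPM), and the summed level of the group was higher in the Il1rl1/Cd86-type (367 and 308 CPM). Tuft cell genes had 1 of 9 (Alox5, median -0.64) and ciliated cell genes 1 of 6 (Dnah9, median 0.11), both toward the Cdh8/Cdh9-type and no more than 1 gene each. Of the 6 ciliated genes 4 had a ratio above 0, and of the 4 parathyroid genes 2 had. Alox5 had a log2 ratio of -0.33 without batch 7, and Dnah9 of -0.71 without batch 6.

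Microfold cell genes were split. Spib, the transcription factor needed for these cells, was higher in the Il1rl1/Cd86-type (444 and 199.4 CPM), a call that was lost narrowly without batch 2 (log2 ratio 0.997). The chemokine Ccl20 (1.11 and 38.8 CPM), the bacterial receptor Gp2 (3.90 and 32.7 CPM) and Ccl9 (11.4 and 91.1 CPM) were higher in the Cdh8/Cdh9-type, and the 9 genes had a median of -0.58.

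Muscle genes pointed to the Il1rl1/Cd86-type. Of 13 myoid genes, 3 were called there and 1 for the Cdh8/Cdh9-type, with a median of 0.87 that was -0.16 when 90 cells were taken at each end. Ttn, the giant sarcomere spring, gave 5347, 3439, 3433 and 2287.6 CPM in the Il1rl1/Cd86-type and 1490, 1362, 1185 and 1174 CPM in the Cdh8/Cdh9-type, without overlap. Chrna1, the muscle acetylcholine receptor chain (34.6 and 11 CPM), and Myog, the myogenic factor myogenin (24.2 and 8.10 CPM), were the other 2. Myom2 was called the other way (3.43 and 8.83 CPM) and had a log2 ratio of -0.69 without batch 2. The summed myoid level was above the 90th percentile in 9 Il1rl1/Cd86-type cells (12.9%) and 0 Cdh8/Cdh9-type cells, and in 18 of the cells between (13.95%), so that high levels were as frequent in the cells not chosen. Among 12 sarcomere genes, which share Ttn and Neb with that group, 4 were called for the Il1rl1/Cd86-type and 1, Ldb3, for the Cdh8/Cdh9-type (median 0.76). Myot itself is one of the genes that chose the cells.

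Hox genes, which set position along the body axis and are classic targets of PRC2, had 3 of 18 called for the Il1rl1/Cd86-type and 0 for the other, while their median was -0.31. Hoxa9 stood at 20.5 against 1.32 CPM, Hoxa10 at 5.89 against 0.63 CPM and Hoxb9 at 3.67 against 1.00 CPM. Of 30 keratins, 8 were called for the Cdh8/Cdh9-type and 1 for the Il1rl1/Cd86-type (median -1.52). Krt7, of simple epithelia, was under 2-fold in 7 alternatives (226.2 and 109.2 CPM, and -0.79 on the log2 scale when cells were ranked within each batch), and Krt19 had 17.8 against 2.14 CPM.

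Interferon response genes were higher in the Cdh8/Cdh9-type, 8 of 16 against 0 (median -1.33). Ifit1, which binds viral RNA, gave 194.7, 136.9, 103.2 and 94.3 CPM in the Cdh8/Cdh9-type of the 4 batches and 9.12, 18.9, 7.15 and 17.6 CPM in the Il1rl1/Cd86-type. It had at least 5 reads in 59 and 37 cells, and the batches lay far apart. Oasl1 (128.4 and 30.2 CPM), Irf7 (36.6 and 16.5 CPM), Gbp2 (29.2 and 6.59 CPM), Ifi44, Mx2, Ifit2 and Ifit3 were also called. Cxcl10 and Mx1 were not, with log2 ratios of -0.12 and 0.98. The summed level of the group differed less (1299 and 955 CPM), and it was above the 90th percentile in 11 Cdh8/Cdh9-type and 8 Il1rl1/Cd86-type cells.

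Cycling genes pointed the other way, with 6 of 16 called for the Il1rl1/Cd86-type and 0 for the other (median 2.15). This rested on few cells. The summed level was 478 against 147.6 CPM, but the median cell had 148.5 and 125.9 CPM, and 7 Il1rl1/Cd86-type (10%) and 2 Cdh8/Cdh9-type cells lay above the 90th percentile of Aire/EED-dKO cells, as did 18 of the cells between (13.95%) and 76 EED-cKO cells (25.1%). One cell held 24.2% of the reads of its type. Without these cells, the median was 0.11, 2 genes were called, and Top2a, the topoisomerase of dividing cells (84.9 and 15.1 CPM), had a log2 ratio of 0.39 in place of 2.49. All genes called for the Il1rl1/Cd86-type then numbered 1418.

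**Figure D4:**
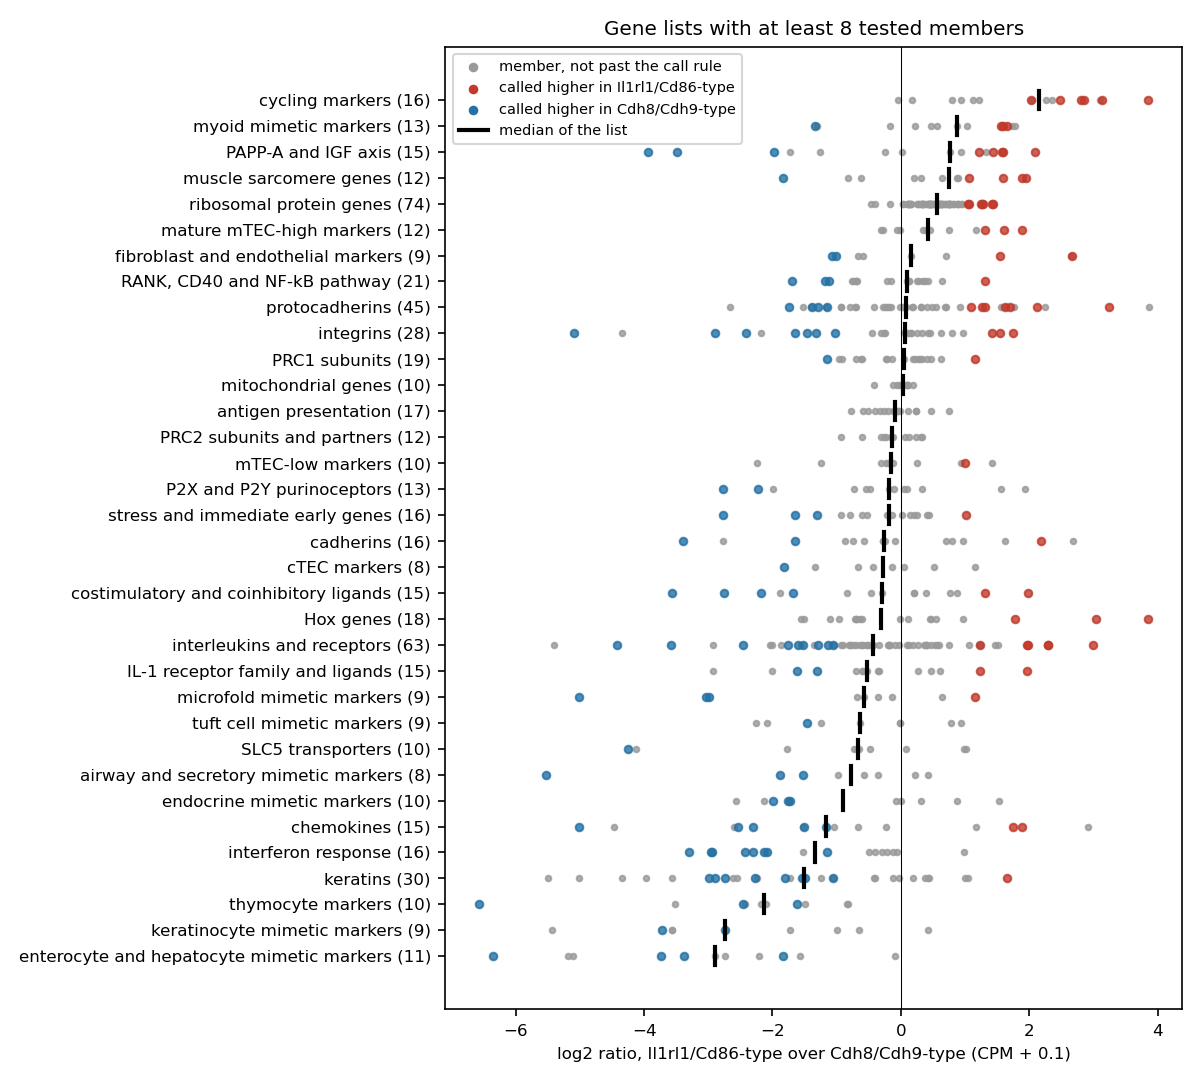
Log2 ratio (CPM + 0.1) of each measured member of the gene groups with at least 8 members, with called genes in colour and the median of the group as a bar, ordered by median. Cycling genes stand at the top with a median of 2.15, and enterocyte and hepatocyte genes at the bottom with -2.89.

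Genes of antigen presentation were largely shared, while some markers of mature cells were higher in the Il1rl1/Cd86-type. None of 17 antigen presentation genes was called (median -0.09, summed level 11214 and 12094 CPM), and the cells had been sorted for high MHC class II. Of 12 genes of mature mTEChi, 3 were called for the Il1rl1/Cd86-type, against 7.00% of all genes, and 0 for the other (median 0.42, with 8 above 0), namely Cd40, Cd83 (140 and 46.1 CPM) and Ccl17 (4.36 and 1.11 CPM). Cd40, the receptor through which T cells drive mTEC maturation, gave 325, 355, 236.01 and 343 CPM in the Il1rl1/Cd86-type and 119.4, 156.9, 96.4 and 135.3 CPM in the Cdh8/Cdh9-type. Its lowest, median and highest cells had 72.5, 315 and 901 CPM against 1.77, 101.5 and 846 CPM, and the batches did not overlap.

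Of 10 genes of mTEClo, 1 was called for the Il1rl1/Cd86-type and 0 for the other (median -0.16). Of 8 genes of cortical epithelium, Ly75 alone was called (71.7 and 252.3 CPM, for the Cdh8/Cdh9-type, median -0.29). Among 21 genes of the RANK, CD40 and NF-kB pathway, Cd40 was called for the Il1rl1/Cd86-type and Traf1 (144.6 and 315 CPM, -0.92 on the log2 scale without batch 7), Ltbr and Traf5 for the Cdh8/Cdh9-type (median 0.10).

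Around Cd86, other costimulatory and coinhibitory molecules were divided between the types. Of the 15 measured, which are ligands for the most part, the receptor Cd40 and the ligand Tnfsf15 were called for the Il1rl1/Cd86-type, and the nectin-like Pvr (1.68 and 20.9 CPM), the galectin Lgals9 (9.53 and 64.6 CPM), Nectin2 (10.9 and 49.8 CPM) and Tnfsf9 (9.83 and 31.8 CPM) for the Cdh8/Cdh9-type (median -0.29). Cd80, the other ligand of CD28, had 312 and 236.98 CPM, and Icosl, the ligand of ICOS, 1356 and 743 CPM, and neither was called. In the IL-1 family, around Il1rl1, 2 of 15 genes were called each way (median -0.53). Il18r1, the receptor chain for IL-18 (526 and 224.4 CPM, under 2-fold at 0.89 on the log2 scale with 90 cells at each end), and the decoy receptor Il1r2 (152.7 and 39.2 CPM) were higher in the Il1rl1/Cd86-type, and the inhibitory Sigirr (18.4 and 56.5 CPM) and the adaptor Myd88 (10.7 and 26.8 CPM) in the Cdh8/Cdh9-type.

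Among 63 interleukins and their receptors, 6 were called for the Il1rl1/Cd86-type and 9 for the Cdh8/Cdh9-type (median -0.43), against 7.00% and 8.77% of all genes. Receptors were called in both directions. Examples of the first were Il21r (146.7 and 30.0 CPM), Il2ra (63.2 and 15.9 CPM), Il27ra (46.3 and 9.36 CPM) and Il31ra (30.0 and 3.66 CPM). Receptors of the second were Il20rb (27.9 and 94.7 CPM), Il17re (16.5 and 47.8 CPM), Il12rb1, Il17rc and Il22ra1. The type 2 cytokine Il13 (71.5 and 148.3 CPM, log2 ratio -0.74 without batch 7) was also in the second. Of 15 chemokines, 5 were called for the Cdh8/Cdh9-type and 2 for the Il1rl1/Cd86-type (median -1.17). Ccl25, which attracts thymocyte progenitors and gut T cells, had 60.0 against 297.4 CPM, and Cxcl2, which attracts neutrophils, 9.05 against 53.1 CPM. Cx3cl1, or fractalkine, had 110.8 against 33 CPM.

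The relatives of the other score genes showed no common direction. Pappa2 belongs to the insulin-like growth factor axis, in which 5 of 15 other genes were called for the Il1rl1/Cd86-type and 3 for the Cdh8/Cdh9-type (median 0.76). Igf2r, the receptor that clears IGF2 (669 and 224.4 CPM), Stc2, an inhibitor of pappalysins (30.6 and 13 CPM), and the binding proteins Igfbp1, Igfbp2 and Igfbp3 were in the first direction. Igf1 (200 and 785 CPM), Igfbp5, a substrate of Pappa2 (10.3 and 117.1 CPM), and Igfbp6 were in the second. Of 16 other cadherins, Cdh22 (82 and 17.9 CPM) was called for the Il1rl1/Cd86-type and Cdh17, the liver-intestine cadherin (119.3 and 374 CPM), and Cdh18 for the Cdh8/Cdh9-type (median -0.26).

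Of 45 protocadherins, 7 and 4 were called (median 0.08), among them Pcdh15, known from the tip links of hair cells, with 372, 414, 393 and 472 CPM in the Il1rl1/Cd86-type and 91.8, 38.4, 18.2 and 16.7 CPM in the Cdh8/Cdh9-type. Of 28 other integrins, 3 and 7 were called (median 0.07), with Itgb5 (117.02 and 34.8 CPM) in the first direction and Itgal (21.4 and 114.7 CPM) and Itga2 (6.49 and 48.8 CPM) in the second. The remaining families had 1 or 2 calls each, toward the Cdh8/Cdh9-type. These were P2rx2 and P2ry6 of 13 purinoceptors (median -0.18), Btnl1 and Btnl6 of 7 butyrophilins (median -0.39) and the glucose transporter Slc5a1 of 10 SLC5 transporters (median -0.67), the last a share near the 8.77% of all genes. Btnl1 was under 2-fold in 3 alternatives (-0.73 after thinning to 200000 reads).

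Markers of cells outside the epithelium were followed as well, since the gate can let a few through. Of 10 thymocyte genes, 0 were called for the Il1rl1/Cd86-type and 3 for the Cdh8/Cdh9-type, and all 10 had a ratio below 0 (median -2.14). The summed level was 23.1 and 124.3 CPM. Ptprc, which codes for CD45, had 0.18 and 26.6 CPM, and 1 Cdh8/Cdh9-type cell held 69% of those reads. Cd4 (1.89 and 10.8 CPM) and Lck (5.14 and 15.9 CPM) were the other 2. Cells above the 90th percentile of these genes numbered 6 and 10, and without them the median was -0.31 and all called genes numbered 1550 and 1949. Of 7 B cell and dendritic cell genes, 1 was called for the Il1rl1/Cd86-type and Cd79b (41.3 and 87.7 CPM) and Csf1r for the Cdh8/Cdh9-type (median -0.85).

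Eosinophil and mast cell genes, the usual company of Prg2, had 1 of 6 called, Prg3 (1.11 and 37.9 CPM, median of the group 0.31). Fibroblast and endothelial genes had 2 of 9 called each way (median 0.16), with Col1a2 (138.2 and 21.7 CPM) for the Il1rl1/Cd86-type and Dcn (229.4 and 485 CPM) for the Cdh8/Cdh9-type. Dcn was under 2-fold in 8 alternatives (-0.83 when cells were ranked within each batch). Of 16 stress and immediate early genes, Hspa1a was called for the Il1rl1/Cd86-type (log2 ratio 0.82 without batch 2) and Atf3 (5.90 and 40.9 CPM), Ier2 and Ier3 for the Cdh8/Cdh9-type (median -0.18). None of 10 mitochondrial genes was called (median 0.04). Of 74 ribosomal protein genes, 7 were called for the Il1rl1/Cd86-type and 0 for the other, and 71 had a ratio above 0 (median 0.56). Their part in the other differences was not tested.

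Genes that followed the score most closely over all Aire/EED-dKO cells were named after their values were seen. Genes of the score were left out, as was 1600012P17Rik, whose exons overlap those of Pappa2. Spock2, a secreted proteoglycan, and Kif21a, a kinesin, both had a Pearson correlation of 0.62 (633 and 119.3 CPM for Spock2, 459 and 60.7 CPM for Kif21a). Others near the top were the endoplasmic reticulum chaperone Hsp90b1 (0.61, 1124 and 418 CPM), the cargo receptor Lman1 (0.61, 473 and 162.5 CPM), the transcription factor Etv6 (0.58, 890 and 404 CPM), the chaperone Hspa5 (0.57, 1219 and 512 CPM) and the disulfide isomerases Pdia6 (0.56, 347 and 136.7 CPM) and Pdia3 (0.56, 596 and 298.7 CPM). Hsp90b1, Lman1 and Hspa5 had at least 5 reads in all 140 cells. Fut8, which adds core fucose in the Golgi, had 0.61, and Cd40 had 0.57. Calr (0.55, 1014 and 533 CPM) and Pdia3 stayed just under the 2-fold limit and were not called.

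At the opposite end stood Npc2, a cholesterol carrier of the lysosome, with -0.66 (187.3 and 656 CPM). Btnl5-ps (-0.58, 3.33 and 64.9 CPM) lies beside Btnl4, and F11r, the tight junction protein JAM-A, had -0.57 (104.9 and 317 CPM). The unconventional myosin Myo15b (-0.56, 19.9 and 313 CPM), the lysosomal channel Tpcn1 (-0.56, 24.3 and 134.2 CPM), the junction protein Ctnnd1 (-0.56, 37.2 and 87.7 CPM) and the microvillus regulator Eps8 (-0.52, 8.27 and 133.6 CPM) followed. Of these, Npc2 (70 and 70 cells at 5 reads), F11r (69 and 70) and Ctnnd1 (67 and 70) were found in nearly every cell of both types and differed mainly in level, while Eps8 was found in 16 and 57 and Btnl5-ps in 15 and 63 cells. These correlations share the cells and the depth of the score.

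Genes beside those of the scores on the chromosome were looked at next. Within 300 kb of the 7 genes of score B lay 67 tested entries (each counted once), of which 20 were called for the Cdh8/Cdh9-type and 2 for the Il1rl1/Cd86-type. Of these entries 9 lie within the span of a score gene, where unstranded counts can hold the reads that chose the cells. Without them, 14 of 58 were called for the Cdh8/Cdh9-type and 2 for the other, and among the 45 that code for proteins 9 and 2. Those 9 coding genes lie around Prg2 and P2rx3, Itga1 and Btnl4. Around the 5 genes of score A, 35 entries outside those genes included 2 called for the Il1rl1/Cd86-type and 6 for the Cdh8/Cdh9-type. Of all tested genes, 7.00% were called for the Il1rl1/Cd86-type and 8.77% for the Cdh8/Cdh9-type. The 2 of 35 around score A was not above that share. The P2rx3 and Prg2 genes lie close together on chromosome 2 (chr2:84998583-85037462 and chr2:84980461-84983632), with Prg3 between them, and share most neighbours. Prg3, the homolog of Prg2 at a distance of 7.75 kb, gave 17.7, 40.4, 34.6 and 53.1 CPM in the Cdh8/Cdh9-type and 1.58, 0.626, 0 and 1.95 CPM in the Il1rl1/Cd86-type, and was at 5 reads in 35 and 2 cells. Slc43a3, a purine transporter (37.5 and 152.2 CPM), Smtnl1 (1.48 and 24.5 CPM), Tnks1bp1 (93.6 and 213.05 CPM) and Lrrc55 (0.04 and 1.68 CPM) were called as well, whereas Ssrp1, between them, had a log2 ratio of -0.14.

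Itga2, the next integrin gene to Itga1, had a log2 ratio of -2.89. Near Btnl4 on chromosome 17, Btnl5-ps (-4.24), Btnl6 (-2.43) and Btnl1 (-1.09) shared its direction, and Tnxb, 203.97 kb away, had the opposite one (1.91). The butyrophilin-like genes resemble each other in sequence, and reads that fit several copies were dropped by the filter on mapping quality, so their levels are less certain. Around Pappa2, Astn1, a neuronal adhesion protein (30.8 and 3.88 CPM), shared its direction, as did 1600012P17Rik (438 and 42.8 CPM), whose exons overlap those of Pappa2 and cannot be told apart in unstranded counts. Il18r1 lies next to Il1rl1 and had 1.23 (0.89 with 90 cells at each end). Itgav, beside Fam171b, went the other way (-1.03) and was under 2-fold in several alternatives, and Mybpc1, near Slc5a8, had 1.89.

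**Figure D5:**
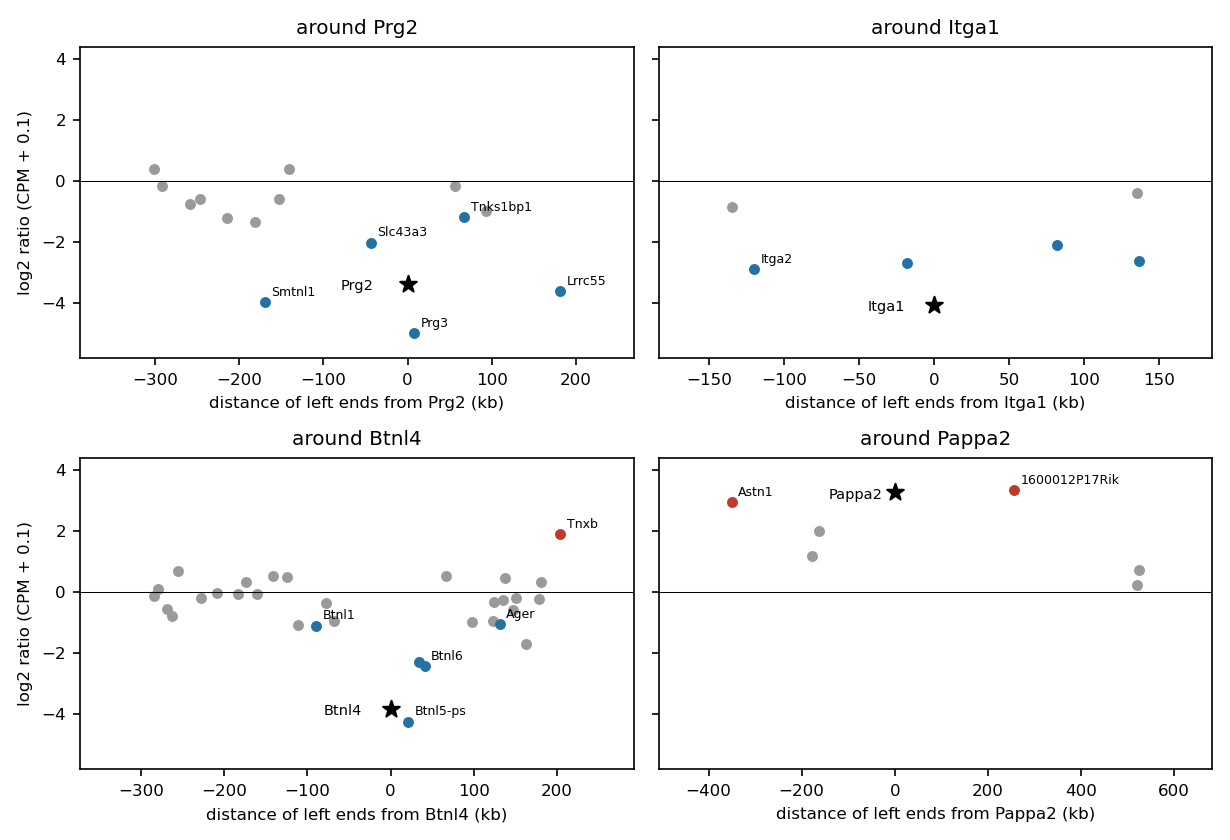
Log2 ratio (CPM + 0.1) of the tested genes around Prg2, Itga1, Btnl4 and Pappa2 (stars), against the distance of their left ends from that gene in kb. Prg3 (-4.97), Itga2 (-2.89) and Btnl5-ps (-4.24) share the direction of their neighbour, and Tnxb (1.91) stands alone above the Btnl4 region.

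Over the called genes, the cells between were closer to the Il1rl1/Cd86-type more often than to the Cdh8/Cdh9-type. The share over all tested genes was not counted. Levels were compared on the log2 scale with 0.1 CPM added. The level of the cells between was closer to that of the Il1rl1/Cd86-type for 1310 of the 1573 genes called for it. For the Cdh8/Cdh9-type genes it was closer to the own type for 788 of 1971. Sfrp5 stood at 44.9 CPM in these cells, Fcrla at 9.37 CPM, Pcdh15 at 258.3 CPM and Cd40 at 218.2 CPM. Sis stood at 3.61 CPM, Lypd8 at 1.74 CPM, Ifit1 at 34 CPM and Prg3 at 2.83 CPM.

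The same score was computed for the EED-cKO cells, which share no cell with the choice above. Only 31 of them (10.2%; 10, 11, 7 and 3 in batches 3, 4, 8 and 9) lay above the upper limit and 10 (3.30%; 3, 2, 1 and 4) below the lower one. Their scores were lower on both sides, with medians of 0.189 for score A and 0.0884 for score B. Itga1 had 43.3 CPM over all EED-cKO cells, Cdh9 6.44 CPM and Btnl4 6.28 CPM, and Pappa2 had 308 CPM. The genotypes were in different batches and partly of another age, and these cannot be told apart.

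When the top 70 and bottom 70 EED-cKO cells were compared by their pooled log2 ratio, many of the called genes had the same direction. Batches 3, 4, 8 and 9 gave 23, 23, 10 and 14 of the top cells and 20, 15, 16 and 19 of the bottom cells. Batch and age were thus not balanced in these ratios. Of the 1573 genes of the Il1rl1/Cd86-type, 1153 (73.3%) had a ratio above 0 there, against 44% of all tested genes, and 509 (32.4%) were at least 2-fold higher, against 9.40%. Of the 1971 genes of the Cdh8/Cdh9-type, 1526 (77.4%) had a ratio below 0, against 56%, and 641 (32.5%) were at least 2-fold, against 11.4%. The median log2 ratio in EED-cKO cells was 0.55 and -0.62 for these genes. Among the genes described above, Tdrd6 (4.81), Galnt13 (5.82), Hoxa9 (2.60), Fcrla (2.49) and Pcdh15 (1.64) stayed with the top cells, and Atp10b (-2.81), Sectm1b (-2.31), Rnase1 (-2.03) and Ifit1 (-1.18) with the bottom cells.

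The genes of score B ranked these cells too, so their levels again describe the choice. Few EED-cKO cells passed the limits, so the top and bottom 70 include cells with smaller differences of the scores. Itga1 had 11.3 CPM in the top and 124.6 CPM in the bottom cells, Btnl4 2.99 and 16.3 CPM, Cdh9 5.13 and 13.7 CPM, Slc5a8 46.1 and 114.3 CPM, Prg2 44.8 and 73.9 CPM, P2rx3 19.9 and 25.6 CPM and Cdh8 14.2 and 17.1 CPM. Among genes outside the score, Sis (3.00 and 0.483 CPM) was higher in the top cells in all 4 batches, the opposite of Aire/EED-dKO cells. Kif12 (44.2 and 13.6 CPM), Lypd8 (34.2 and 27.3 CPM) and Crnn (19.1 and 12 CPM) also had ratios above 0, but with both signs among the batches. Prg3, beside Prg2, had 11.3 and 8.84 CPM. Of the 10 genes with the largest ratio toward the Cdh8/Cdh9-type, 85 EED-cKO cells (28.1%) had 3 or more at 5 reads, among them 6 of the 10 cells below the lower limit and 8 of the 31 above the upper one. For the 10 genes of the opposite direction the share was 39.6%, with 1 of the 10 and 22 of the 31 cells.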

How the data were processed

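Single mTEChi were measured by RamDA-seq in 572 libraries of 1 cell each, of Aire/EED-dKO and EED-cKO mice. The authors trimmed reads with fastp 0.20.0, aligned them to mm10 with STAR 2.7.3a, filtered out those of mapping quality below 5 with SAMtools 1.9 and duplicates with Picard 2.21.1, and counted the others per gene with HTSeq 0.11.2 without regard to strand. They kept cells with over 200000 reads and over 8000 genes. The deposited counts are whole reads per gene, not normalized. The second deposited table holds natural log values, ln(10000 times the share of a gene in its cell, plus 1), and differed from this formula by at most 5.33e-15 in 8 cells. It served for the scores, and the counts for all else.

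For each type, the reads of its 70 cells were added up (66731597 and 62085201 in all) and expressed as CPM. Cells are not replicates and no label names an animal, so no test was made. Some genes are given with their 4 batches and the others as pooled levels. Genes needed at least 5 reads in 5 of 140 cells and were called at 2-fold with 1 sign in all batches. The named genes are the 12 of the scores, Aire, Eed, Ezh2 and Suz12, the 10 largest ratios in each direction among called genes with 5 reads in at least 14 of 70 cells and a proper symbol, the most abundant called gene of each list in each direction, and the nearest coding neighbours of the 12. Others named are members of lists, or were chosen after their values were seen. Some genes of the lists are not reported here. The members and the gene lists were chosen with earlier results of these data known. No pair of Aire/EED-dKO cells had identical counts (0 pairs), every column matched a label (0 unmatched), and 186 of 50197 identifiers had no name in the annotation. Doublets were not searched for, as cells were sorted singly.

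The calling steps were run on simulated counts, drawn for each gene on its own and for fixed groups of cells. No cells were chosen by a score there, so the run cannot show what that choice does to the calls. Python 3.11.15 was used with numpy 2.4.6, pandas 2.3.3, scipy 1.17.1 and matplotlib 3.10.9. Scaling factors of edgeR 4.0.16 (TMM) and DESeq2 1.42.0 were alternatives, as were other pseudocounts and filters, thinned cells, other numbers of cells, other forms of the score and each batch left out. Leaving out cells high in thymocyte genes, or the highest cell of each gene, was added after seeing the data.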

Additional observations from a re-analysis of the deposited data

Results flagged for a closer look

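With 4 batches for each named gene, a gap this wide is met by chance in about 1 of 20 genes, or 5.15 of all those looked at, and 6 had one. In these 6 genes 1 batch stood far from the other 3 in its log2 ratio of the Il1rl1/Cd86-type over the Cdh8/Cdh9-type, by Dixon's criterion for 4 values. Sfrp5 had 3.22 in batch 2, against 4.57 to 4.72 in the others. Sis had -2.83 in batch 6, against -6.64 to -6.33. Top2a had 1.01 in batch 7, against 2.46 to 2.75. Dnah9 had -4.68 in batch 6, against -0.89 to -0.75. Dcp2, the nearest coding gene to Myot on one side, had -0.48 in batch 2, against 0.59 to 0.68. Gm49395, whose exons overlap those of Itga1, had -4.61 in batch 7, against -0.95 to -0.87.

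Sis also went opposite ways in the 2 genotypes when cells were ranked by the same score. The log2 ratio was -6.31 in Aire/EED-dKO cells, below 0 in 4 of 4 batches, and 2.41 in EED-cKO cells, with 1.06 to 3.85 in the 4 batches. The difference between the genotypes was not tested, and the levels in EED-cKO cells rested on few reads (3.00 and 0.483 CPM).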

How the results depend on the processing

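The number of genes called for the Il1rl1/Cd86-type was at its lowest 997 in place of 1573, and for the Cdh8/Cdh9-type 1345 in place of 1971. Both came from thinning every cell to 200000 reads, which left 15508 genes to test, and the 997 was the only count over all settings that moved by over 1.5 times. That setting kept 54.6% and 58.3% of the genes called in the 2 directions. Taking 50 cells at each end kept 70.9% and 72%. Leaving out each batch in turn gave at least 1695 genes for the Il1rl1/Cd86-type and moved neither count by over 1.5 times. TMM factors shifted the median of all genes by 0.05 and DESeq2 size factors by 0.08 on the log2 scale. Of the 73 called named genes, 21 fell under 2-fold in at least 1 of 19 alternatives, and 0 changed sign. The latter says little, since the call rule already asked for a 2-fold ratio and 1 sign in all batches. Ranking with standardized values kept 60 and 66 of the 70 cells, and ranking within batches 64 and 62. No paired analysis was possible because no label links a cell of 1 genotype to one of the other. Both types come from the same 4 batches, and the mean of the within-batch log2 ratios gave 1762 genes for the Il1rl1/Cd86-type and moved the other count by less than 1.5 times. Depth limits genes at a few reads per cell, where a batch level under 1 CPM rests on few reads.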
